A study of Saccharomyces cerevisiae with 76 samples.

Results

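The peaks described here are those of Abf1 that lie away from promoters by the place of their summits among genes. Abf1 is a general regulatory factor of the budding yeast Saccharomyces cerevisiae that binds a bipartite DNA sequence, keeps promoters free of nucleosomes and also acts at replication origins, silencers and the X elements of telomeres. Most of its known work is done just upstream of genes, where a bound factor can also block RNA polymerase II that reads through from a neighbouring gene. A peak was included when its summit lay inside a protein-coding open reading frame (ORF), between the 3′ ends of a pair of convergent ORFs, or beyond the last ORF of a chromosome arm. Of the 948 peaks in the list, 221 met this rule. There were 143 summits in ORFs, 66 between convergent ORFs and 12 beyond the last ORF. The other peaks lay between divergent ORFs (351 summits) or tandem ORFs (376 summits), where at least 1 promoter is present. The rule goes by the place of the summit among ORFs alone. Of the 138 ORF summits outside tRNA genes, 32 still lay within 500 bp upstream of the start codon of another ORF.

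The list comes from chromatin immunoprecipitation (ChIP) of Abf1 with an anti-V5 antibody, pooled over 3 immunoprecipitations and 3 inputs at t = 0. The cells were BY4742, MATalpha, with tor1-1, fpr1del and RPL13A-FKBP12-NAT, and with Abf1 carried as Abf1-FRB-yEGFP-3V5-hphMX4. They had received DMSO for 90 min and no rapamycin, so Abf1 had not been depleted from the nucleus. The tag is on the only copy of Abf1, and the untagged strain and the depletion time course, which make up the rest of the 76 samples of the series, were not analysed here. Each summit has 1 pooled fold enrichment, the fragments over the summit relative to the background from the input. The 221 summits were covered by 266 to 7411 fragments (median 442). Intervals given for a fold enrichment cover counting error of the fragments only, and intervals for shares are 95% Wilson intervals that also cover counting error only. Peaks of 1 pooled list are not replicates, so the classes are described without a test.

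Sequences at a few of these peaks show what most of the strong ones have in common. They are printed 5′ to 3′ along the strand of the match, from the RefSeq R64 assembly (sacCer3), with the 13 positions of the Abf1 consensus in capitals. The consensus fixes 8 of the 13 positions and leaves a spacer free in the middle. The first set gives the strongest summits in ORFs, and the second the strongest in ORFs that lack an exact match and differ from the consensus at 1 fixed position.

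GDH2 (chrIV:73447-73467, plus strand): aagtATCGTTTCCGACGgcgt
ACT1 (chrVI:54466-54486, plus strand): cactATCACTTATCACGaaaa
TAG1 (chrXII:504170-504190, minus strand): tgccGTCGTAAGTGACGcatc
SNA3 (chrX:136364-136384, plus strand): tccgATCACTAAGTACGgccg
RSO55 (chrXII:704655-704675, plus strand): cggcATCGTGTCGTACGacgc
TRM9 (chrXIII:244003-244023, minus strand): agccCTCACTATGAACGgcag
ELA1 (chrXIV:217600-217620, plus strand): atccGGCATTTCGTACGaaaa
FMT1 (chrII:203179-203199, minus strand): ggccAGCACGTTCTACGgcga

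Summits in tRNA genes were kept apart, because 48 of the 221 lay in one. Of these, 43 were between convergent ORFs, 5 were in ORFs and 0 were beyond the last ORF. None of the 48 (0%, 0 to 7.41%) had an exact consensus match within 100 bp of the summit, and their fold enrichments were low and narrow, 2.03 to 4.84 with a median of 3.00. Of all 231 summits in tRNA genes, 10 had a match (4.33%), and the median was 2.95 (2.03 to 9.79). Few matches and a low median are thus common to tRNA gene summits of the whole list. The 5 in ORFs had 2.75 to 3.82, none with a fold enrichment of 4. The 3 highest of the 48 were a tRNA-Ser gene between TAH11 and ANB1 (4.84, 4.48 to 5.22), a tRNA-Thr gene between APC11 and YDL007C-A (4.43, 4.10 to 4.78) and the tRNA-Gly gene SUF6 between CUS2 and YNL284C-B (3.92, 3.59 to 4.27). With these included, 72 of the 221 summits reached a fold enrichment of 4 (32.6%), beside 44.4% of the whole list, and 98 had a consensus match (44.3%), beside 58.9% of the whole list. The study describes weak apparent binding at tRNAs as a known artefact of ChIP, and whether this holds for these summits was not tested. All values below leave the tRNA genes out.

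The 3 classes then held 138, 23 and 12 summits. ORFs make up 72.8% of the nuclear genome and held 15.7 summits per Mb. Regions between convergent ORFs held 44.1 per Mb and the chromosome ends 307 per Mb, beside 258 per Mb between divergent and 163 per Mb between tandem ORFs. In ORFs, 50 of 138 summits reached a fold enrichment of 4 (36.2%, 28.7 to 44.5%), between convergent ORFs 8 of 23 (34.8%, 18.8 to 55.1%) and beyond the last ORF 12 of 12, against 55.9% of all 717 summits outside tRNA genes. The median fold enrichment was 3.15 in ORFs, 2.64 between convergent ORFs and 17.1 beyond the last ORF, against 5.28 between divergent and 5.74 between tandem ORFs.

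**Figure D1:**
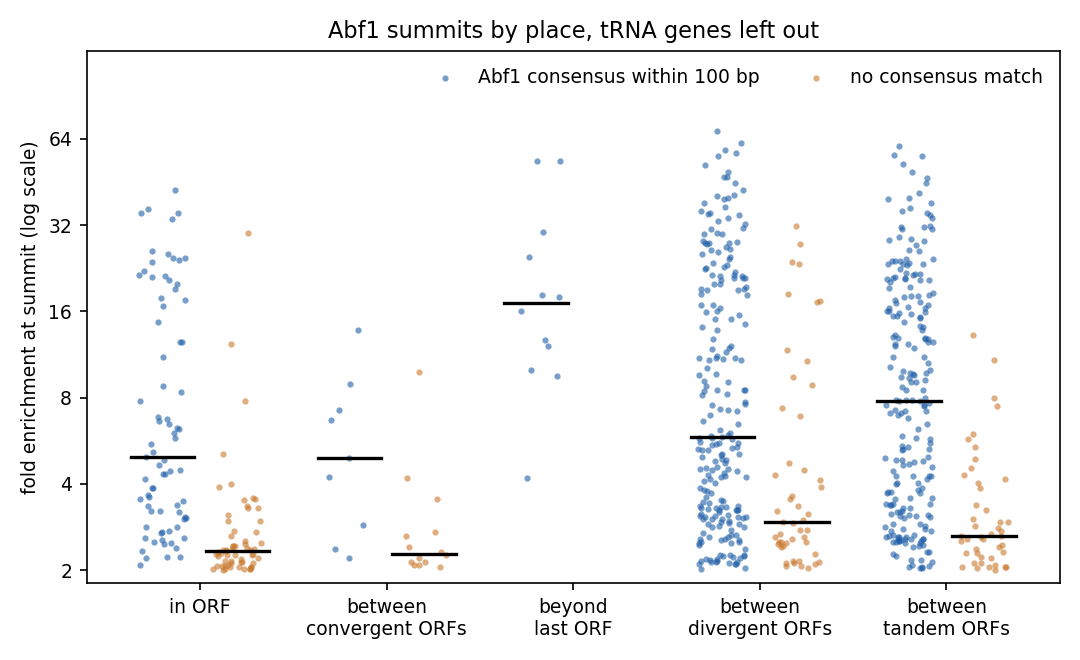
Fold enrichment at each summit outside tRNA genes (log scale) by place, with summits that have an Abf1 consensus match within 100 bp in blue and those without in orange, and black lines at the medians. In ORFs the median is 4.96 with a match and 2.32 without, and all 12 summits beyond the last ORF have a match.

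An exact consensus match lay within 100 bp of 77 of the 138 ORF summits (55.8%, 47.5 to 63.8%), of 9 of 23 convergent summits (39.1%, 22.2 to 59.2%) and of all 12 summits beyond the last ORF, against 76.4% of all summits outside tRNA genes. Windows of the same length tiled over the genome held a match in 1.63% of cases when centred in ORFs and in 1.94% when centred between convergent ORFs. Beyond the last ORF the share of windows was 7.98%. The matches lay close to the summits, at a median of 10 bp in ORFs. In ORFs, summits with a match had a median fold enrichment of 4.96 (2.09 to 42.5), and those without a match 2.32 (2.01 to 30.1). Of the 77 with a match, 46 reached a fold enrichment of 4, and of the 61 without, 4 did. Summits in ORFs with an exact match thus cover the whole range of signal. Those without lie almost wholly close to the lower limit of the list. The study treats apparent weak binding over ORFs and tRNA genes as a known ChIP artefact that its fold enrichment line of 4 filters out. Whether these weak summits are of that kind was not tested.

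The highest summit of the ORFs lay in GDH2, which encodes the NAD-dependent glutamate dehydrogenase, at a fold enrichment of 42.5 (41.4 to 43.6). It was 467 bp into an ORF of 3279 bp. ACT1, the actin gene, followed at 36.3 (35.3 to 37.4), with the summit in its intron, 244 bp from the start codon. Both lie in the early part of the gene. UBP10, a ubiquitin protease, had 23.7, at 143 bp from its start codon. GSC2, a catalytic subunit of beta-glucan synthase, had 25.9 (25.1 to 26.8), at 80 bp. RSO55 had 33.6 (32.6 to 34.7), at 324 bp, and the small ORF YGR240C-A had 25.3 (24.5 to 26.2), at 125 bp.

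In another set of strong sites the summit lay at the end of its host and upstream of the next gene. In TAG1 the fold enrichment was 35.3 (34.3 to 36.2), at 95.8% of the ORF and 421 bp upstream of the start codon of IDP2, the cytosolic isocitrate dehydrogenase. In SNA3 it was 35.2 (34.2 to 36.2), on the last base of the ORF and 439 bp upstream of INO1, the inositol phosphate synthase gene. In SCS3 it was 24.7 (23.8 to 25.5), 446 bp upstream of MET13, a methylenetetrahydrofolate reductase. TRM9, a tRNA methyltransferase gene, held the highest ORF summit without an exact match, at 30.1 (29.2 to 31.0), 131 bp upstream of UBX2. The 12 highest also include YNR077C and YOL166W-A, small ORFs in telomeric regions that are described with the chromosome ends.

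Over all 138 ORF summits, 42 lay in the opening part, 44 in the middle part and 52 in the closing part when each ORF was divided into 3 equal parts. The median distance to the nearest start codon was 363 bp (quartiles 202 and 562 bp), and for 109 of them that start codon was the host's own. There were 32 summits within 500 bp upstream of the start codon of another ORF (23.2%, 16.9 to 30.9%), beside 108 of all 751 consensus matches in ORFs. The 32, of which 23 had a match, had a median fold enrichment of 5.999, against 2.74 for the other ORF summits. With a match the medians were 6.86 and 4.25, and without a match 2.29 and 2.34. At a fold enrichment of 4 or more they were 9.92 and 13.6. The share upstream of another start codon was 20 of 50 for summits of fold enrichment 4 or more (40%, 27.6 to 53.8%), against 12 of 88 below it (13.6%, 7.98 to 22.3%). Of the 27 summits at 10 or more, 24 lay within 500 bp of a start codon on either side (88.9%), beside 95 of all 138 (68.8%). None of the 27 was over 1000 bp away. Of their 27 host ORFs, 11 were shorter than 500 bp, and a summit in such an ORF always lies within 500 bp of its start codon.

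**Figure D2:**
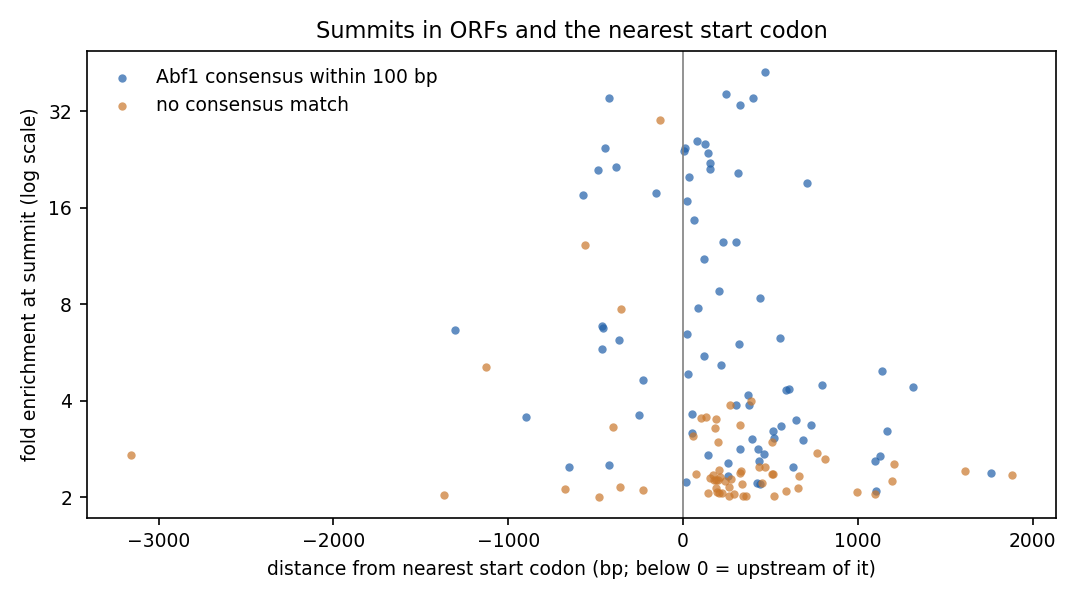
Fold enrichment (log scale) of the 138 summits in ORFs against the distance from the nearest start codon in bp, with values below 0 upstream of that start codon, and with summits with a consensus match in blue and those without in orange. Strong summits lie on both sides of a start codon, and 57 of the 61 summits without a match are below a fold enrichment of 4.

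Of the 138, 16 were farther than 1000 bp from every start codon, beside 178 of all 751 consensus matches in ORFs. These 16 were of modest signal. The highest was in FAS2, the alpha subunit of fatty acid synthase, at 6.65 (6.22 to 7.09), 5355 bp from the FAS2 start codon and 1305 bp upstream of USV1. PRY3, which encodes a cell wall protein, followed at 5.09 (4.73 to 5.48), without an exact match. HRK1, a protein kinase gene, had 4.96 (4.59 to 5.36), HRB1, an mRNA-binding protein gene, had 4.42 (4.09 to 4.77), and PTK1, another kinase gene, had 3.21 (2.91 to 3.53).

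The genome holds 1785 exact consensus matches outside the mitochondrial genome, and 34.9% of them had a summit within 100 bp. In ORFs this was 95 of 751 (12.6%, 10.5 to 15.2%), between convergent ORFs 9 of 49 (18.4%, 9.98 to 31.4%) and beyond the last ORF 12 of 13 (92.3%, 66.7 to 98.6%), against 266 of 470 between divergent ORFs (56.6%, 52.1 to 61.0%) and 241 of 502 between tandem ORFs (48.0%, 43.7 to 52.4%). Most matches inside ORFs thus had no peak in the list. Within ORFs the share differed with the distance to promoters. It was 32 of 108 (29.6%, 21.8 to 38.8%) within 500 bp upstream of another start codon, 33 of 230 (14.3%, 10.4 to 19.5%) in the first 500 bp of the host only, and 30 of 413 (7.26%, 5.14 to 10.2%) elsewhere. The Wilson interval of the first does not overlap those of the other two.

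**Figure D3:**
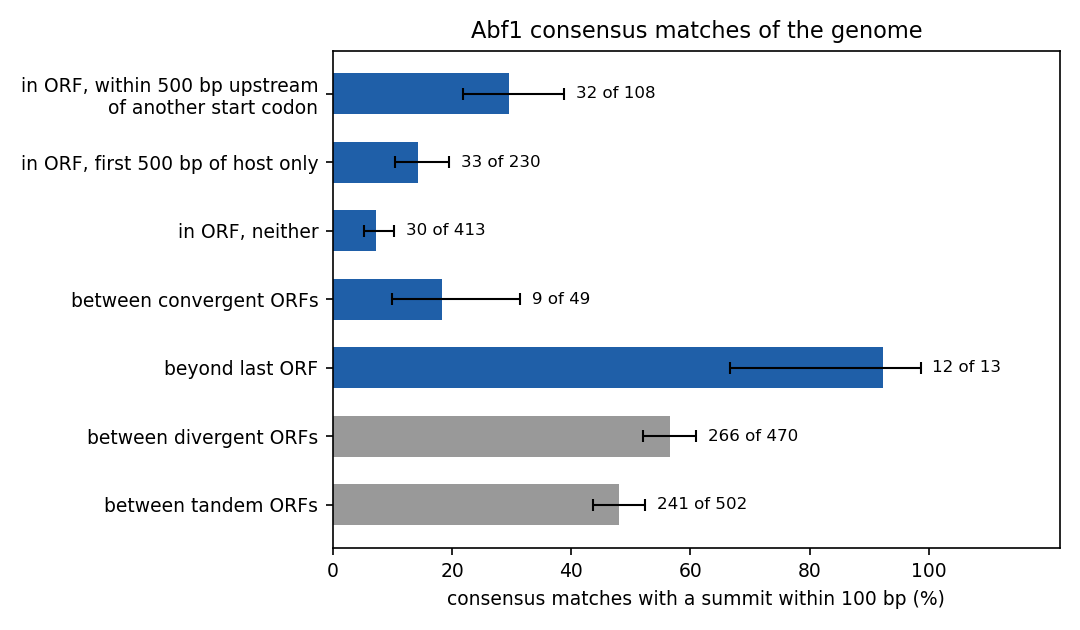
Share of exact Abf1 consensus matches of the nuclear genome that have a summit within 100 bp, in percent, by place, with 95% Wilson intervals and the counts beside the bars. Blue bars are in ORFs, between convergent ORFs or beyond the last ORF, and grey bars are between divergent or tandem ORFs. Matches in ORFs range from 7.26% away from start codons to 29.6% upstream of another start codon.

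The base 2 positions before the consensus bears on how well Abf1 can be cross-linked, G or C being the favourable ones. Of the 77 ORF summits with a match, 49 had G or C there (63.6%) and 28 had A or T. Between divergent and tandem ORFs, 39.6% of the 450 summits with a match had G or C. Matches in ORFs hold G or C more often whether or not they have a summit. Of all matches, 307 of 751 in ORFs had G or C, beside 113 of 470 between divergent and 130 of 502 between tandem ORFs. In ORFs the median fold enrichment was 5.50 with G or C and 4.60 with A or T. Between divergent and tandem ORFs it was 18.1 with G or C and 4.06 with A or T. Among all matches in ORFs, 18.9% with G or C (58 of 307, 14.9 to 23.6%) and 8.33% with A or T (37 of 444, 6.11 to 11.3%) had a summit. The match was on the strand opposite to the host ORF at 46 of 77 summits (59.7%, 48.6 to 70.0%), beside 53.3% of all matches in ORFs.

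The 61 ORF summits without an exact match were mostly weak, 57 of them below a fold enrichment of 4. Those with the highest signal were near matches. TRM9, ELA1 (12.3, 11.7 to 12.9), FMT1 (7.76, 7.32 to 8.21) and PRY3 each had a sequence that differs from the consensus at 1 fixed position within 100 bp, as did 37 of the 61 in all. Of tiled windows in ORFs, 42.9% hold such a sequence. A weight matrix of the motif, built here from 324 sequences and not the one used by the study, gave a match at 87 of the 138 ORF summits (63.0%). The exact consensus gave 77. The share of tiled windows that pass the matrix is not given. The division into summits with and without a match thus depends on the motif model. ELA1 lay 563 bp upstream of PDR16 and FMT1 lay 353 bp upstream of SCT1, a glycerol phosphate acyltransferase gene. The next in signal were RRN5 (3.997), CCW12 (3.89), YDR524C-B (3.57) and YHR007C-A (3.53).

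The hosts of the summits without a match differed in codon use from other ORFs. The codon adaptation index, which rises as a gene uses the codons of ribosomal protein genes, is computed from the sequence alone. It had a median of 0.784 in the 44 host ORFs without a match at any of their summits, against 0.196 in all 5988 ORFs scored. In the 75 hosts with a match it was 0.182. Of the 44 hosts without a match, 29 were above the 95th percentile of all ORFs (65.9%), against 11 of 75 hosts with a match (14.7%). Leaving the ribosomal protein genes out, which set the index, 15 of 30 hosts without a match were above it. Transcription itself was not measured here.

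**Figure D4:**
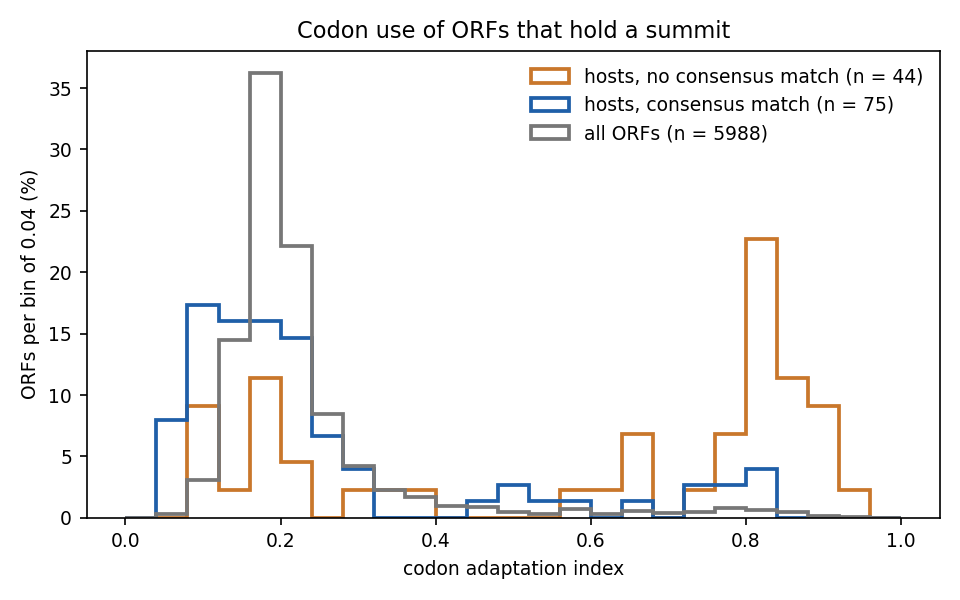
Codon adaptation index of ORFs that hold a summit, as percent of ORFs per bin, for hosts without a consensus match (orange), hosts with one (blue) and all ORFs (grey). Hosts without a match have a median of 0.784, against 0.196 for all ORFs.

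Gene lists, chosen with earlier results of these data known, describe some of these genes. Of 6002 ORFs, 119 (1.98%) held a summit. Among 20 glycolysis and fermentation genes there were 8 hosts, 7 of them without a match. TDH3, a glyceraldehyde phosphate dehydrogenase, had 3.29 (3.01 to 3.60), ADH1, the fermentative alcohol dehydrogenase, 3.11 (2.84 to 3.41) and PDC1, pyruvate decarboxylase, 2.35 (2.12 to 2.60), all without a match, while PFK1, a phosphofructokinase subunit, had 2.38 with one. Among 137 cytosolic ribosomal protein genes there were 17 hosts, 14 without a match. RPS2 (6.02, 5.63 to 6.44) and RPS23A (4.33, 4.01 to 4.67) had a match, and RPS26A (3.35) and RPL3 (2.97) did not.

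Of 8 translation elongation genes, YEF3 (2.53) and HYP2 (2.29) were hosts, both without a match. Of 14 cell surface genes, 4 were hosts, PMA1 (4.35, with a match), CCW12 (3.89), CWP2 (2.07) and HSP150 (2.06). Of 18 enzymes of amino acid synthesis and the methyl cycle, ILV5, which acts in branched-chain amino acid synthesis, was the only host (3.37, with a match). None of 15 chaperone genes, 8 histone genes or 49 subtelomeric genes of the COS, PAU, YRF1 and FLO families held a summit. At the share of 1.98% over all ORFs, lists this small can hold none without differing from other ORFs. The lists together hold 269 ORFs, of which 32 were hosts (11.9%). They made up 26 of the 44 hosts without a match, which is 9.67% of the listed ORFs, beside 0.733% of all ORFs.

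Of the 119 host ORFs, 14 held more than 1 summit, and 9 of these 14 had no match at any of their summits. With each interval counted once, the 75 intervals with a match at an ORF summit had a median length of 702 bp (259 to 3474 bp), and the 44 without one had a median of 918 bp (244 to 3071 bp). The ranges overlap. Several ORF summits were held by 6 of the 75 intervals with a match and by 7 of the 44 without. PMA1, the plasma membrane proton pump, held 6 summits in an interval of 3474 bp, with fold enrichments of 3.51, 4.35, 2.25, 2.42, 2.35 and 2.02 along the gene from its start codon, and only the second had a match. PDC1 held 3 summits, with 2.35, 2.32 and 2.07. In PMA1 and PDC1 the summits were spread along the ORF. In SCS3 the 2 summits of 1 interval had 3.04 and 24.7, both with a match. PRY3 had 4.49 and 5.09, SNF6 had 3.49 and 3.55, and ILV5 had 2.43 and 3.37.

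Between convergent ORFs, 9 of 23 summits had a match and a median fold enrichment of 4.94, and the 14 without had a median of 2.28. The sequences of 3 of the strongest exact matches were as follows.

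COQ21/SWC5 (chrII:682085-682105, plus strand): cagcATCGTTATACACGtagt
CHS5/JIP3 (chrXII:789942-789962, plus strand): ggccGTCGCGCTCTACGaaaa
YJR128W/EFM3 (chrX:663260-663280, minus strand): ttatATCATCATACACGaaaa

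The highest was between COQ21 and SWC5 at 13.8 (13.2 to 14.4), 218 bp from LSR1, the U2 snRNA gene. The site between GLC7 and YER134C followed at 9.81 (9.30 to 10.3), without an exact match and 91 bp from a tRNA gene. CHS5/JIP3 had 8.94 (8.46 to 9.43), PAU21/YOR394C-A had 7.25 (6.79 to 7.74) and YJR128W/EFM3 had 6.67 (6.24 to 7.11). DIT1/RPB7 (4.94), YDR029W/RAD28 (4.23) and AHA1/YDR215C (4.18) completed the 8 highest. YJR128W/EFM3 lay 222 bp upstream of the start codon of RSF2.

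The lowest were a second summit between COQ21 and SWC5 (2.13), RPS28B/YLR264C-A (2.09), YGL088W/MMS2 (2.08) and MF(ALPHA)1/UIP4 (2.05), none with a match. Of the 14 convergent summits without a match, 6 lay inside an RNA gene other than a tRNA gene and 9 lay within 300 bp of any RNA gene, against 2 of the 9 with a match. The RNA genes that hold these 6 are the snRNA genes LSR1 (U2) and SNR6 (U6), the snoRNA genes SNR3, SNR10 and SNR55, and RPR1, the RNA of RNase P. The share of all convergent sequence within 300 bp of an RNA gene was not computed.

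Beyond the last ORF, all 12 summits lay in annotated telomeric regions, 179 to 843 bp from the chromosome end. With 4 summits in small ORFs and 1 between convergent ORFs, 17 of the summits described here lay in such a region, and all 17 had a match. Of the 32 annotated telomeric regions 30 held a summit. These were all 15 regions without a Y′ element and 15 of the 17 with one, and the other 14 summits there lay between divergent or tandem ORFs. The X element, which carries an Abf1 site at yeast telomeres, is repeated between chromosome ends, and the sequences show how alike the sites are.

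TEL10R (chrX:745155-745175, minus strand): tcgcATCATTATGCACGgcac
TEL03L (chrIII:825-845, plus strand): tcgcATCATTATGCACGgcac
TEL13R (chrXIII:923792-923812, minus strand): tcatATCATTATGCACGgcac
TEL11R (chrXI:666157-666177, minus strand): ccacATCATTATGCACGgcac
TEL02R (chrII:812632-812652, minus strand): tcacATCATTATTCACGgcac
TEL04L (chrIV:631-651, plus strand): tcacATCATTATTCACGgcac

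The 13 consensus positions were identical at 9 of the 17, whose fold enrichments were 14.7 to 53.6, and a second form was shared by 4, with 4.18 to 16.1. The other 4 were each of their own form. TEL10R and TEL03L share every printed base and had 53.6 (52.3 to 54.9) and 53.6 (52.4 to 54.8). They have G 2 positions before the consensus, where the others of the 9 have A. Beyond the last ORF, the 3 summits with G or C there had 9.55 to 53.6 (median 53.6). The 9 with A or T had 4.18 to 30.2 (median 16.1). The part of this base in the differences was not tested. TEL11R shares its printed bases with the sites in YNR077C and YCR108C, and these had 24.8 (24.0 to 25.7), 24.6 (23.8 to 25.5) and 21.2 (20.4 to 22.0). The 3 sites of the form printed for TEL02R and TEL04L were not alike, with 12.7 (12.2 to 13.2) at TEL02R, 12.1 (11.5 to 12.8) at TEL11L and 4.18 (3.83 to 4.55) at TEL04L. At TEL04L the match lay 32 bp from the summit.

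**Figure D5:**
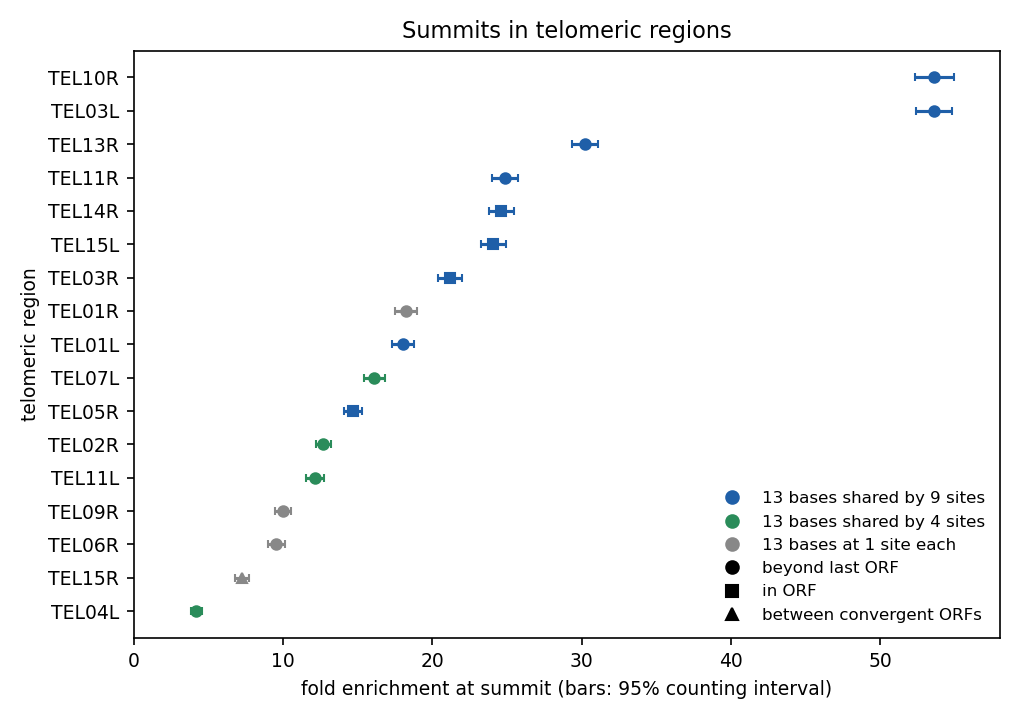
Fold enrichment of the 17 summits in telomeric regions, with 95% counting intervals, coloured by whether the 13 consensus positions are shared by 9 sites, by 4 sites or by none, and with symbols for the place. TEL10R and TEL03L stand highest at 53.6 each, and TEL04L lowest at 4.18.

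The other ends were TEL13R (30.2), TEL01R (18.2), TEL01L (18.0), TEL07L (16.1), TEL09R (9.97) and TEL06R (9.55), the last at the origin ARS610. Origins lay at other ends too. The TEL04L summit was inside ARS400, and those of TEL01L, TEL03L and YCR108C each had an origin within 300 bp. YOL166W-A at TEL15L had 24.1 and YER188C-A at TEL05R had 14.7. Fragments were kept only where they map uniquely, and the part of repeated sequence in these differences was not tested.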

How the data were processed

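Per the labels and the methods of the study, the authors used HISAT2 2.0.5 to align read pairs against sacCer3, removed duplicates by molecular identifier, kept uniquely mapping fragments and called peaks with MACS2 2.1.1.20160309, splitting intervals into summits. The 3 immunoprecipitations, from independent colonies, were pooled before calling, so no replicate spread is in the list. The deposited fold enrichment is the ratio of summit fragments to input background. The deposited −log10 p-value and −log10 q-value come from the same caller, and the deposited score was not used. The lowest listed values are a fold enrichment of 2.00 and a −log10 q-value of 22.9. Fragments were solved from the fold enrichment and −log10 p-value, within 0.01 of a whole number at 941 summits.

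Summits were placed on the R64 annotation (6002 nuclear ORFs, introns included, and 275 tRNA genes). Consensus matches were sought on both strands, with the midpoint within 100 bp of the summit. The codon adaptation index took cytosolic ribosomal protein genes as its standard. Sites were named by a rule: in ORFs the 12 highest, the 8 highest without a match and the 5 highest over 1000 bp from a start codon, all summits or the 8 highest and 4 lowest in the other classes, 3 in tRNA genes, 6 ORFs with most summits, and up to 4 hosts per gene list. The members, lists and rule were chosen with earlier results of these data known. Alternatives covered the thresholds, the window, the motif model, the summits per interval and the assignment to ORFs. Functions were tested on simulated data. Analyses used Python 3.11.15 with pandas 2.3.3, scipy 1.17.1 and numpy 2.4.6, and figures were drawn with matplotlib 3.10.9.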

Additional observations from a re-analysis of the deposited data

How the results depend on the processing

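Of 57 combinations of a value and an alternative, 47 stayed within 1.5 times the count or within the interval of the value, and 10 moved. Counting only summits of fold enrichment 4 or more left 50 of 143 in ORFs and 10 of 66 between convergent ORFs, summits in tRNA genes included (2 of the 10). Using only the highest summit of each interval, the ORF median became 3.65 and the share with a consensus match 66.1%. Allowing at most 1 mismatch gave 82.6%. The share of ORF summits upstream of another start codon was 8.70% at 300 bp and 47.1% at 1000 bp. With summits of fold enrichment 4 or more only, 7.72% of consensus matches in ORFs had one. With glycolysis and fermentation genes as the standard, the codon adaptation index had medians of 0.287 in hosts with a match and 0.813 in hosts without, and all ORFs had 0.310, so the whole scale moved. No paired analysis was possible because the list was made from the merged immunoprecipitations, and leaving out each replicate could not be run for the same reason. Depth limits the weakest summits, whose counting intervals reach below 2.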

Other observations

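A pair of weak convergent summits, chosen after their values were seen, lay at other known chromosomal elements. One between YIL001W and SGN1 lay at the centromere CEN9, with a fold enrichment of 2.37 (2.13 to 2.63) and a match 30 bp from the summit. The other, between YCR095W-A and HMRA2 beside ARS317 at the silent mating-type locus HMR, had 2.20 (1.95 to 2.48) and a match 78 bp from the summit. Of the 119 host ORFs, 1 was a transposon ORF, YBL100W-B, with a summit of 2.71 and no exact match, 3159 bp upstream of ATP1.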
